A study of Mus musculus with 4 samples.

Results

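The genes described here are long noncoding RNAs of 2 kinds. Malat1 and Neat1 are nuclear RNAs, Rmst is an RNA known from neuronal differentiation, and Gas5, Snhg1, Snhg3, Snhg5, Snhg6, Snhg8 and Snhg12 are hosts of small nucleolar RNAs (snoRNAs). They were chosen by name, and a gene counted as present when the Ensembl identifier of that name had a row in the table of RNA levels. Of the 10 listed genes, 7 had a row among the 14533 genes of the table, and Rmst, Snhg6 and Snhg8 had none.

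The levels came from RNA-seq of mouse embryonic stem cells (ESCs), in 4 libraries. Serum ESCs (2 libraries) were kept in medium with fetal calf serum, and 2i ESCs (2 libraries) in serum-free medium with the MEK inhibitor PD0325901 and the GSK3 inhibitor CHIR99021. Both media held leukaemia inhibitory factor. All cells had been adapted to their medium for over 20 days and sorted by cell-cycle phase, which the sample labels give as late G1-phase and the series description as early G1-phase. The labels name no cell line and no genotype. The replicates are called biological, with no statement of separate cultures, so the spread between them may be partly technical.

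Malat1 is retained in nuclear speckles, which hold splicing factors, and Neat1 is the scaffold RNA of paraspeckles. A snoRNA host gene is transcribed and spliced like a messenger RNA, but its introns carry snoRNAs, which are trimmed from the excised introns and guide the modification or processing of ribosomal RNA. Box C/D snoRNAs guide 2′-O-methylation and box H/ACA snoRNAs guide pseudouridylation, with a few of each acting in the cleavage of the ribosomal RNA precursor. The spliced host RNAs often carry little coding potential, and several are removed by nonsense-mediated decay.

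The 7 genes lie on 4 chromosomes of the mouse build mm9. Malat1 (ENSMUSG00000092341, chromosome 19, 5795690 to 5802671) and Neat1 (ENSMUSG00000092274, chromosome 19, 5824708 to 5845478) are neighbours on the minus strand, and each is annotated as a stretch of DNA covered by exons from end to end. Snhg1 (ENSMUSG00000090867, 8797986 to 8800932, plus strand) is on the same chromosome. Snhg12 (ENSMUSG00000086290, 131864593 to 131866939, plus strand) and Snhg3 (ENSMUSG00000085241, 131903929 to 131909601, minus strand) are close to each other on chromosome 4. Gas5 (ENSMUSG00000053332, 162964553 to 162968670, plus strand) is on chromosome 1, and Snhg5 (ENSMUSG00000032424, 88415894 to 88417721, minus strand) on chromosome 9.

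The 5 hosts with a row enclose 25 annotated snoRNA genes on their own strand, namely 9 in Gas5, 8 in Snhg1, 4 in Snhg12, 2 in Snhg3 and 2 in Snhg5. Of these, 21 overlap an exon of at least 1 annotated host isoform, because some isoforms retain the introns. Only 8 of the 25 had a row of their own. They were SNORD24 and Snord47 in Gas5, Snord22 in Snhg1, Snora16a, Snora44 and Snora61 in Snhg12, and Snora73a and Snora73b in Snhg3.

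**Figure D1:**
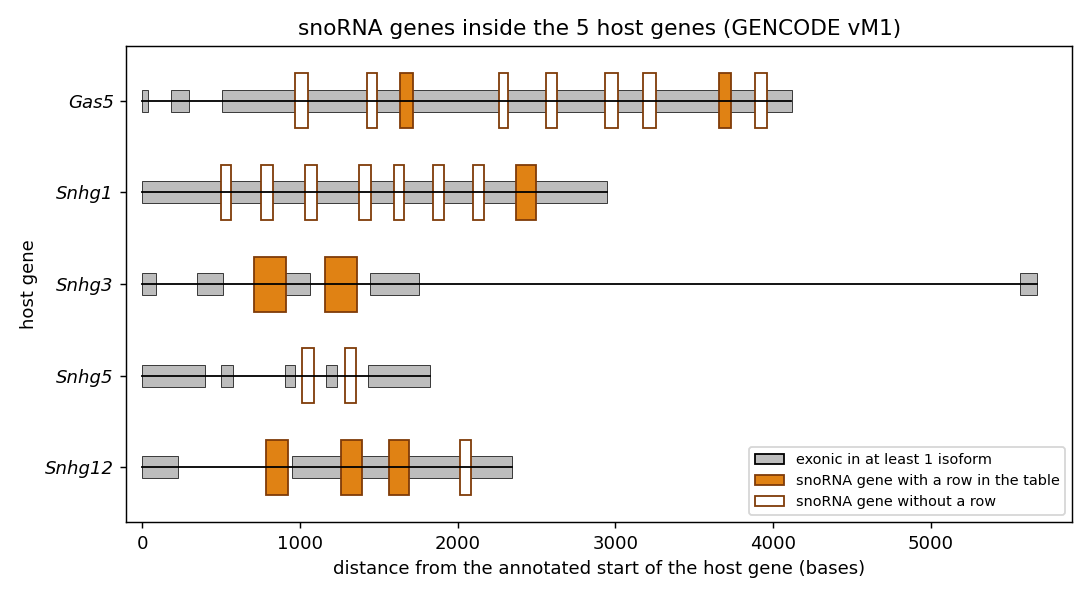
Each of the 5 host genes is drawn as a line, with the distance from its annotated start in bases on the horizontal axis, grey boxes for sequence that is exonic in at least 1 isoform, and taller boxes for snoRNA genes. Filled snoRNA boxes are the 8 with a row in the table, and open boxes are the other 17. Gas5 and Snhg1 hold the most snoRNA genes, and Snhg5 is the host with no filled box.

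The snoRNA sequences show how closely some of these rows are related. Snora73a (chr4:131908690-131908894, minus strand) and Snora73b (chr4:131908237-131908441, minus strand) are the H/ACA snoRNAs of Snhg3, also known as U17 or E1, which act in ribosomal RNA cleavage. They are given first because 198 of their 205 bases are identical (96.6%). Capitals mark the bases at which they differ, in mm9, 5′ to 3′.
Snora73a: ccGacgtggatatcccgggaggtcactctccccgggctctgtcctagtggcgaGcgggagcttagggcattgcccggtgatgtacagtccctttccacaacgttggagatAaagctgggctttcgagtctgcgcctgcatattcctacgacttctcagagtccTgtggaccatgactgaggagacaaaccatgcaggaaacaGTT
Snora73b: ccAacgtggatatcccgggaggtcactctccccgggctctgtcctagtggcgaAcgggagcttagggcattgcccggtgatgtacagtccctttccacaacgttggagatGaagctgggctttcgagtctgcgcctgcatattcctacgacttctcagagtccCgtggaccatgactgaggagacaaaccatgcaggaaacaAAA
The 7 differences include the last 3 bases of both annotated copies.

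The next sequences show 1 snoRNA each from Snhg12, Snhg1 and Gas5, with the conserved boxes in capitals. Snora16a (chr4:131865380-131865515, plus strand) is an H/ACA snoRNA, and its capitals mark ACA. It is the only snoRNA row here that lies outside the exons of all other annotated genes. Snord22 (chr19:8800356-8800481, plus strand) and SNORD24 (chr1:162966188-162966270, plus strand) are C/D snoRNAs, with capitals for the C box TGATGA and the D box CTGA.
Snora16a: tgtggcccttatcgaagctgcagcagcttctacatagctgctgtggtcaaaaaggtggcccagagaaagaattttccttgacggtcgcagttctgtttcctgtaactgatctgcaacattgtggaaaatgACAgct
Snord22: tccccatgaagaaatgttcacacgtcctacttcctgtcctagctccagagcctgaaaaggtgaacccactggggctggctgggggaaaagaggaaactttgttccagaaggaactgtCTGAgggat
SNORD24: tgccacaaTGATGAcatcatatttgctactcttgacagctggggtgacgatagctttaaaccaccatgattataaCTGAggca
The C box was searched on the transcribed strand in the first 25 bases, the D box from a start in the last 20 and ACA from a start in the last 8. Over all 1552 annotated mouse snoRNA genes, of both classes, TGATGA was found in 19.2%, CTGA in 34.3% and ACA in 47.7%. These 6 letters of the C box were not found in that window of Snord22.

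A 43-base read, the length sequenced here, can fit more than 1 of these genes. Of the 43-base words of each gene's annotated transcripts, taken on both strands, those found in no other annotated gene made up 99.9% for Snhg5, 99.7% for Neat1, 93.8% for Malat1, 93.2% for Gas5, 90.2% for Snhg1 and 87.8% for Snhg12. For Snhg3 they made up only 35.6%, since 54.6% of its words are shared with Gm17300, a gene annotated on the opposite strand, 11.9% with Snora73a and 6.72% with Rcc1, a protein-coding gene on the same strand. Snora16a had 100% of its words to itself, and the other 7 snoRNA rows had 0%. The rows of Snhg3 and of those 7 snoRNAs are therefore uncertain, because the quantification may have had to divide such reads. Gm17300 holds 100% of the words of Snora73b. Sharing with that gene matters only if the counting ignored strand, which the sources used here do not give.

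The values below are normalized counts, which are reads per gene divided by a scaling factor for each library. Summed over the genes of the table, the libraries held between 18939401 and 26570098 reads, and the smallest total over the 4 libraries among these genes was 51 reads. Shares of counts given below are of such sums. Differences are log2 fold changes of serum over 2i on the scale of log2(normalized count + 1), fitted with limma over 13005 genes with a mean of at least 50 in either group and adjusted over all of them by Benjamini-Hochberg. Genes with an adjusted p below 0.05 and a change of more than 2-fold were called. Over all genes tested, the size of the log2 difference had a median of 0.53 for the pair of serum replicates, 0.76 for the pair of 2i replicates and 0.55 for the conditions. The replicate values compare single libraries and the last value compares means of 2 libraries, so they are not on the same scale. The libraries also differed in their share of short structured RNAs. The snoRNA genes took 2.54% (replicate 1) and 7.56% (replicate 2) of counts in serum ESCs, beside 3.66% (replicate 1) and 4.69% (replicate 2) in 2i ESCs, and the class annotated as miscellaneous RNA took from 7.38% in serum replicate 2 to 42.1% in serum replicate 1.

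None of the 7 genes was called between serum and 2i ESCs by limma, and 0 had an unadjusted p under 0.05. The same rule called 0.0154% of all genes tested, and 776 of the 13005 genes had an unadjusted limma p under 0.05. Neither count of 0 is therefore a result about these genes. The serum values of 6 of the 7 overlapped the 2i values. Snhg3 was the exception, with both serum values above both 2i values, a pattern seen in 20.5% of all genes tested. The median log2 fold change of the 7 genes was 0.14, beside 0.0047 for all genes tested. The estimates were positive for 6 of the 7, but for 5 under TMM scaling, 4 under quantile normalization and 3 under upper quartile scaling, which moved the median of all genes to -0.14. These values are of bulk RNA, in which fewer cells of a type and less RNA per cell cannot be told apart.

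**Figure D2:**
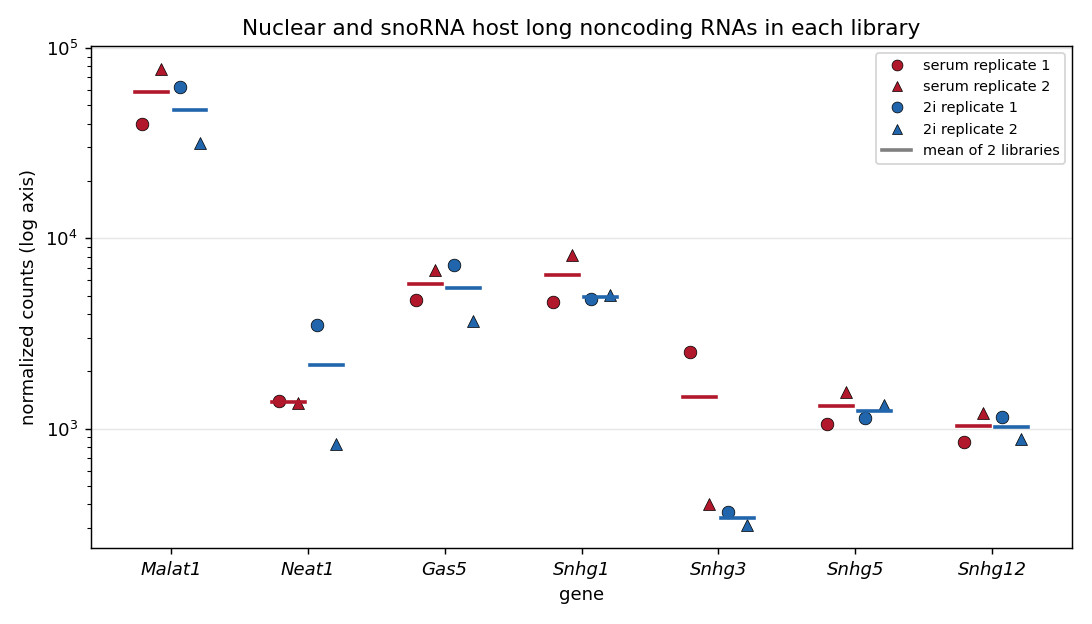
Normalized counts on a log axis are plotted for the 7 genes in each library, with red symbols for serum, blue symbols for 2i, circles for replicate 1, triangles for replicate 2 and bars for the mean of the 2 libraries. Serum and 2i symbols interleave for 6 genes, and for Snhg3 serum replicate 1 (2534) lies far above the other 3 libraries (310.4 to 404).

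Malat1 was by far the most abundant of the genes. Its normalized counts were 40012 and 77635 in serum ESCs and 62579 and 31669 in 2i ESCs. The highest and the lowest library thus belonged to different conditions, and the replicates differed 1.94-fold in serum and 1.98-fold in 2i. The log2 fold change was 0.32 (SE 0.79, 95% interval -1.57 to 2.22, limma adjusted p = 0.931). Malat1 alone took between 0.150% and 0.422% of a library's counts over the genes of the table. An antisense gene within it, Gm20417, shares 425 exonic bases with Malat1 and had no row.

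Neat1, the neighbour of Malat1, was far below it in every library. Its normalized counts were 1398 and 1365 in serum ESCs and 3496 and 830.3 in 2i ESCs. The serum replicates were close to each other (1.02-fold), whereas the 2i replicates lay on both sides of them and differed 4.21-fold. Serum over 2i, the log2 fold change was -0.30 (SE 0.71, 95% interval -2.02 to 1.41, limma adjusted p = 0.930). It was 0.73 without 2i replicate 1, so its sign was set by that library. Neat1 has 4 annotated transcripts, short and long, and the table gives a single value for all of them.

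Gas5, the host of 9 snoRNA genes, is named for its accumulation in growth-arrested cells. Its values were 4765 and 6799 in serum ESCs and 7236 and 3694 in 2i ESCs. Both serum values lay between the 2i values. This gave a log2 fold change of 0.14 (SE 0.55, 95% interval -1.18 to 1.46, limma adjusted p = 0.963). Gas5 and Malat1 had the same lowest library, 2i replicate 2, whereas their highest libraries were 2i replicate 1 and serum replicate 2.

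Snhg1, the host of 8 snoRNA genes, had values of 4625 and 8169 in serum ESCs and 4774 and 5057 in 2i ESCs. The 2i replicates were close to each other (1.06-fold) and lay between the serum replicates. The estimated log2 fold change was 0.32 (SE 0.51, 95% interval -0.91 to 1.55, limma adjusted p = 0.894). Without serum replicate 2 it was -0.087.

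Snhg3, the host of Snora73a and Snora73b, had values of 2534 and 404 in serum ESCs and 365 and 310.4 in 2i ESCs. It was the gene with the widest range of the 7, at 8.16-fold between the highest and the lowest library, and 1 library made that range. The serum replicates differed 6.27-fold and the 2i replicates 1.18-fold. The log2 fold change was 1.59 (SE 0.85, 95% interval -0.47 to 3.64, limma adjusted p = 0.753), which is 3.001-fold on this scale with an interval from 0.723 to 12.5. Without serum replicate 1 it fell to 0.26.

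The genes that share sequence with Snhg3 had other patterns. Gm17300, on the opposite strand, had 2381 and 1725 in serum ESCs and 8179 and 2393 in 2i ESCs. Rcc1, which encodes the nucleotide exchange factor of the GTPase Ran, had 1231 and 1627 in serum ESCs and 811 and 861 in 2i ESCs. For Gm17300 both serum values were below both 2i values and for Rcc1 both were above, and neither was called (limma adjusted p = 0.753 for both). Whether reads were moved between these rows and Snhg3 was not tested.

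The remaining hosts had the narrowest ranges. Snhg5, the host of a pair of genes for the C/D snoRNA SNORD50, had values of 1057 and 1562 in serum ESCs and 1139 and 1325 in 2i ESCs. Snhg12 had 854 and 1208 in serum ESCs and 1153 and 883 in 2i ESCs. In both genes the serum replicates enclosed the 2i replicates. The log2 fold change was 0.06 for Snhg5 (SE 0.45, 95% interval -1.01 to 1.14, limma adjusted p = 0.979) and 0.01 for Snhg12 (SE 0.45, 95% interval -1.07 to 1.09, limma adjusted p = 0.997). The intervals were the shortest of the 7 genes and still reached past a 2-fold change on both sides.

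**Figure D3:**
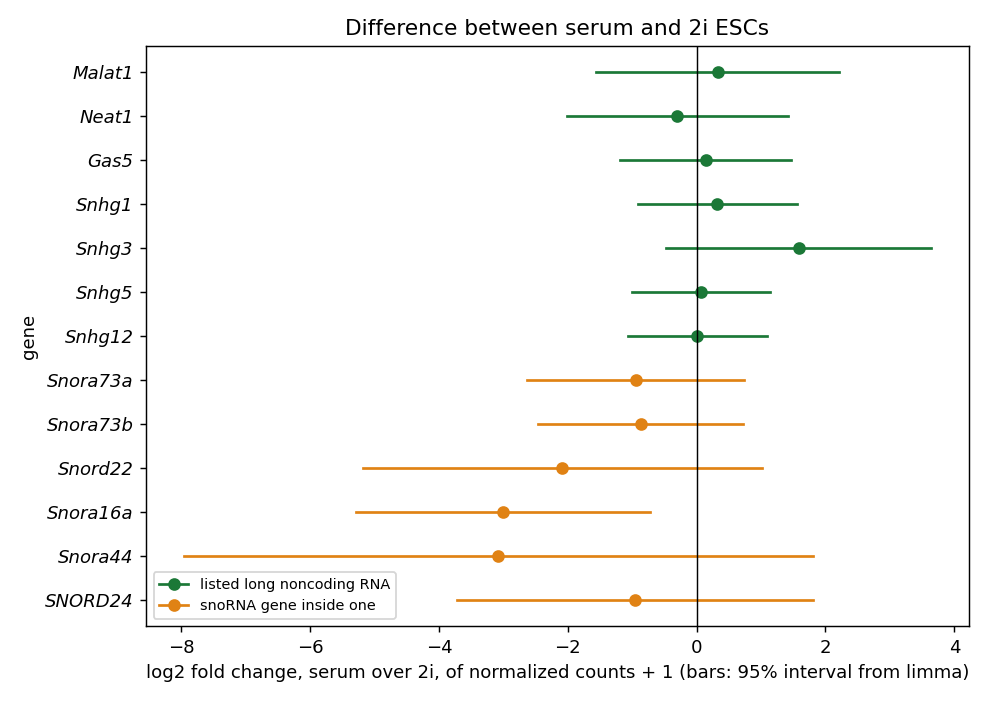
Points are log2 fold changes of serum over 2i, of normalized counts + 1, and bars are 95% intervals from limma, for the 7 long noncoding RNAs (green) and the 6 snoRNA genes tested inside them (orange). All intervals of the long noncoding RNAs cross 0, the snoRNA estimates are all below 0, and among the snoRNA intervals that of Snora16a (-5.29 to -0.72) does not reach 0.

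Per length, the order of the 7 genes differed from that in counts. The mean over the 4 libraries was 7587 normalized counts per kb of exonic sequence for Malat1, 1919 for Snhg1, 1496 for Gas5, 1280 for Snhg5, 916 for Snhg3, 630 for Snhg12 and 85.3 for Neat1. The lowest library of Malat1 (4536 per kb) was above the highest of every other member, and the highest of Neat1 (168 per kb) was below the lowest of every other. Between them, the ranges over libraries of Snhg1, Gas5 and Snhg5 overlapped, the range of Snhg3 (315 to 2570 per kb) overlapped all of theirs and that of Snhg12, and the range of Snhg12 (525 to 743 per kb) was below those of Snhg1, Gas5 and Snhg5. Among all genes of the table Malat1 stood at the 98.4th percentile of the level per kb and Neat1 at the 47.1st. The lengths count all exonic sequence, retained introns included, so a level per kb is low for a gene whose longest isoforms are little used.

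The snoRNA rows inside the hosts did not follow the rows of the hosts. All 8 were highest in 2i replicate 1, whereas of the 4 hosts with such rows only Gas5 was highest there. The same library was the highest for 113 of the 132 snoRNA genes of the table (85.6%), against 26.2% of all genes tested, so this pattern was shared with snoRNA genes elsewhere in the genome. Other short RNA classes did not all share this pattern. Genes of small nuclear RNAs took 0.392% and 0.0839% of counts in serum ESCs, beside 5.87% and 3.68% in 2i ESCs. Genes annotated as ribosomal RNA took 1.03% in 2i replicate 1 and at most 0.0824% in the other libraries, with 0% in 2i replicate 2. The shares of miscellaneous RNA (42.1%) and of microRNA genes (0.0404%) were highest in serum replicate 1. That of the snoRNA genes as a class was highest in serum replicate 2 (7.56%). The part of library composition in the snoRNA values was not tested.

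The 2 snoRNAs of Snhg3 were the most abundant. Snora73a had values of 36154 and 18580 in serum ESCs and 57953 and 43127 in 2i ESCs. Snora73b had 29806 and 16530 in serum ESCs and 45474 and 36276 in 2i ESCs. In both, the serum values lay below the 2i values, and the libraries had the same order. Their log2 fold changes were -0.95 for Snora73a (SE 0.70, limma adjusted p = 0.765) and -0.87 for Snora73b (SE 0.66, limma adjusted p = 0.766). Neither was called, and with the words they share the rows are not independent measurements.

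Snora16a, the snoRNA row that shares no 43-base word with another gene, had values of 61.0 and 21.4 in serum ESCs and 623 and 143 in 2i ESCs. Both serum values were below both 2i values, while its host Snhg12 overlapped between conditions. Its log2 fold change was -3.01 (SE 0.95, 95% interval -5.29 to -0.72, limma adjusted p = 0.753). Without 2i replicate 1 the estimate fell to -1.95.

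The other snoRNA rows rested mainly on 2i replicate 1. Snord22 had 329 and 154 in serum ESCs and 4112 and 222 in 2i ESCs, with a log2 fold change of -2.08 (SE 1.29, limma adjusted p = 0.753) that became 0.018 without that library. Snora44 had 40.0 and 2.92 in serum ESCs and 622 and 17.5 in 2i ESCs, with a log2 fold change of -3.08 (SE 2.03, limma adjusted p = 0.759). SNORD24 had 32.0 and 33.0 in serum ESCs and 144 and 28.1 in 2i ESCs, with a log2 fold change of -0.96 (SE 1.14, limma adjusted p = 0.850). In these 3 genes 2i replicate 2 lay below the higher of the serum values.

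Snord47 and Snora61 were too low to be tested. Snord47 had 14.01 and 0 in serum ESCs and 66.4 and 0 in 2i ESCs, and Snora61 had 10.01 and 1.94 in serum ESCs and 91.4 and 6.79 in 2i ESCs. Of the 6 snoRNA rows tested, 0 were called, 3 had both serum values below both 2i values, against 19.4% of all genes tested, and 1 had an unadjusted limma p under 0.05, against 776 of the 13005 genes. The 109 snoRNA genes tested elsewhere had a median log2 fold change of -2.75, with 105 lower in serum, 62 with both serum values below both 2i values and 0 called. An unadjusted limma p under 0.05 was found for 34 of the 109. The 6 inside the hosts had a median of -1.52, and all 6 estimates were negative under each scaling tried.

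**Figure D4:**
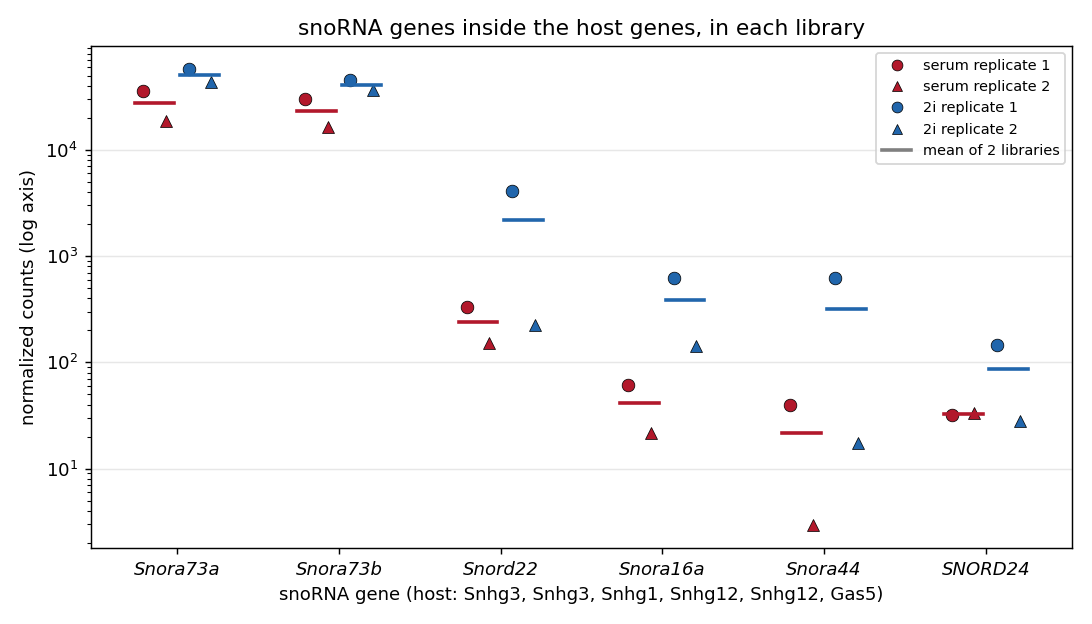
Normalized counts on a log axis are plotted for the 6 snoRNA genes tested inside the hosts in each library, with red symbols for serum, blue symbols for 2i, circles for replicate 1, triangles for replicate 2 and bars for the mean of the 2 libraries. The blue circle of 2i replicate 1 is the highest symbol for every gene, from 57953 for Snora73a to 144 for SNORD24.

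The snoRNA rows were also set against their hosts within each library. For Snhg3, the log2 ratio of the summed snoRNA counts to the host count was 4.70 and 6.44 in serum ESCs and 8.14 and 7.99 in 2i ESCs, so both serum ratios were below both 2i ratios. The Snhg3 row has only 35.6% of its words to itself. For Snhg12 the ratios were -2.93 and -5.47 in serum ESCs and 0.21 and -2.40 in 2i ESCs, again without overlap. For Snhg1 they were -3.81 and -5.72 in serum ESCs and -0.22 and -4.50 in 2i ESCs, and for Gas5 -6.66 and -7.64 in serum ESCs and -5.09 and -6.99 in 2i ESCs. In these 2 genes the conditions overlapped. These ratios are a description of 4 libraries, with no test and no share over all genes beside them. The 109 snoRNA genes tested outside the hosts were also mostly lower in serum (median log2 fold change -2.75). Whether the ratios are particular to these hosts was not tested.

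When host and snoRNA reads were kept together, by summing the rows of a host and its snoRNAs (for Snhg3 also Gm17300), an analysis chosen after the values had been seen, none of the 4 sums was called. The log2 fold change of the sum was 0.12 for Gas5, -0.093 for Snhg1, -0.57 for Snhg12 and -0.90 for Snhg3 (limma adjusted p from 0.788 to 0.976). The sign thus turned for Snhg1, Snhg12 and Snhg3. In Snhg3 the host made up a small part of the sum, which was 70875 and 37239 in serum ESCs and 111972 and 82106 in 2i ESCs.

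Rmst is annotated in the build of the table (chromosome 10, 91544491 to 91627923, minus strand) and had no row. Among 5 neural marker genes, 3 had a row, and their summed values were 1026 and 1049 in serum ESCs and 623 and 979 in 2i ESCs. Taken singly, all 3 of these genes overlapped between the conditions. Snhg6 and Snhg8 had no gene of that name or of a listed synonym in the annotation, so no row could be assigned to them. The RefSeq promoter of Snhg8 occurs unchanged in mm9 on chromosome 3 (123211205 to 123211504, minus strand). An unnamed snoRNA gene downstream of it, AC124005.1 (123210855 to 123210984, minus strand), had 40.0 and 4.86 in serum ESCs and 381 and 25.2 in 2i ESCs. Like the other snoRNA rows it was highest in 2i replicate 1, and it was not called (log2 fold change -2.69, limma adjusted p = 0.756).

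A related list held 16 other noncoding genes, most of them hosts of snoRNAs, together with Meg3 and Mirg, which are neighbours of the snoRNA host Rian. Of these, 12 had a row, all 12 were tested and 0 were called, with a median log2 fold change of 0.07 and 6 estimates on each side of 0. An unadjusted limma p under 0.05 was found for 3 of the 12, against 776 of the 13005 genes tested. Leaving out 2i replicate 1 moved the median to 0.68, and leaving out 2i replicate 2 turned it to -0.40. Both serum values lay above both 2i values for 4 of the 12, against 20.5% of all genes tested, and below them for 2, against 19.4%. Snhg20, which the annotation names 2810008D09Rik, had the most positive estimate. Its values were 6480 and 7621 in serum ESCs and 362 and 1385 in 2i ESCs, with no overlap (log2 fold change 3.31, SE 0.69, limma adjusted p = 0.753). Rian and Mirg, both transcribed from the imprinted Dlk1-Dio3 region, also had both serum values above both 2i values. Rian had 11388 and 13187 in serum ESCs and 6840 and 3155 in 2i ESCs (log2 fold change 1.40, limma adjusted p = 0.753). Meg3, of the same region, overlapped, with 2766 and 3664 in serum ESCs and 3733 and 285 in 2i ESCs. Snhg15, named Gm11974 in the annotation, lay on the other side, with 507 and 712 in serum ESCs and 1849 and 848 in 2i ESCs (log2 fold change -1.06, limma adjusted p = 0.753). The other members of the list ranged from -0.88 for Snhg7 to 1.62 for Meg3.

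Of 11 other nuclear long noncoding RNAs, 7 had a row, 6 were tested and 0 were called, with a median log2 fold change of 0.64. Dropping serum replicate 1 gave a median of 1.44, dropping 2i replicate 1 gave 0.97 and dropping serum replicate 2 gave 0.31. Xist, which coats the inactive X chromosome, had 294 and 1187 in serum ESCs and 308 and 102 in 2i ESCs. Its antisense partner Tsix had 171 and 312 in serum ESCs and 121 and 50.4 in 2i ESCs, and was the gene of the list without overlap. This 1 of 6 stands beside the 20.5% of all genes tested with both serum values above both 2i values. Reads of Xist and Tsix overlap in the genome, and whether the counting used strand is not given in the sources used here. Tug1 had a log2 fold change of 0.86 (SE 0.57) and Firre, which is transcribed from the X chromosome, one of -0.33 (SE 0.91).

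The genes of proteins that bind these RNAs were also not called. In this and the following lists of proteins, the values are RNA levels of the encoding genes. All 8 core proteins of snoRNA particles were tested, with a median log2 fold change of 0.50 and 7 positive estimates (5 under upper quartile scaling, 6 under the other scalings), beside 6536 positive estimates among the 13005 genes tested. Leaving out a single serum library gave a median of 0.14 (replicate 2 dropped) or 0.83 (replicate 1 dropped). Fbl, the methyltransferase of C/D particles, had 3293 and 2992 in serum ESCs and 2669 and 963 in 2i ESCs, and Dkc1, the pseudouridine synthase of H/ACA particles, had 3997 and 5361 in serum ESCs and 5031 and 3698 in 2i ESCs. Fbl had both serum values above both 2i values, as had Nop56 and Nop58 of the same particles, and Dkc1 overlapped. These 3 of 8 stand beside the 20.5% of all genes with that pattern.

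All 10 genes of paraspeckle proteins had positive estimates, from 0.0053 for Rbm14 to 1.22 for Hnrnph3, with a median of 0.63. Only 9 did under TMM scaling and 7 under upper quartile scaling or quantile normalization. Without serum replicate 2 the median fell to 0.25. Sfpq, which binds Neat1, had 3193 and 8660 in serum ESCs and 2419 and 3511 in 2i ESCs. Its partner Nono had 5122 and 7355 in serum ESCs and 2971 and 6130 in 2i ESCs, so both overlapped between conditions. Of the 10 genes, 4 had both serum values above both 2i values, against 20.5% of all genes tested, and 0 were called.

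Among 8 genes of nuclear speckle proteins the median was 0.78, with 7 positive estimates under each scaling and 0 called. That median fell to 0.21 when 2i replicate 1 was left out and to 0.26 when serum replicate 2 was. Son, a large scaffold protein of speckles, had 6133 and 8040 in serum ESCs and 3834 and 3190 in 2i ESCs, and was the gene of the list without overlap (log2 fold change 1.01, SE 0.47, limma adjusted p = 0.753). This 1 of 8 stands beside the 20.5% of all genes tested with both serum values above both 2i values. Among 10 factors of nonsense-mediated decay, which degrades Gas5 and similar host RNAs, the median was 0.056 (0.52 without serum replicate 1, 0.0011 without 2i replicate 1) and 0 were called. Upf1, the helicase of the pathway, had 1041 and 2108 in serum ESCs and 1222 and 1773 in 2i ESCs, which overlapped.

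The labelled cell type was checked against marker genes. All 7 ESC markers had a row, and their summed values were 56609 and 78969 in serum ESCs and 68012 and 90774 in 2i ESCs. Markers of primitive endoderm (4 of 7 with a row) summed to 72.0 and 109 in serum ESCs and 332 and 256 in 2i ESCs, and those of trophectoderm (5 of 6) to 1172 and 719 in serum ESCs and 4363 and 4404 in 2i ESCs. Different genes carried the trophectoderm sums of the 2i libraries. In 2i replicate 1 they were Elf5 (2215) and Tfap2c (1743), with Krt8 at 83.1, and in 2i replicate 2 Krt8 (3614), with Elf5 at 85.4. The median log2 fold change of that list turned from -1.30 to 0.19 without 2i replicate 1. Fibroblast markers (3 of 6) summed to 2834 and 1472 in serum ESCs and 1213 and 400 in 2i ESCs, most of which was Vim (2604 and 1278 in serum ESCs, 1013 and 341 in 2i ESCs). Col1a1 had a log2 fold change of -1.33, and the median of the 3 genes fell from 1.63 to 0.45 without 2i replicate 2. The part of other cells in the values of the long noncoding RNAs was not tested.

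The genes most alike in pattern were searched for Malat1, Neat1 and Gas5, as the smallest Euclidean distance between log2 values centred per gene over the 4 libraries. For Malat1 they were Slc26a2 (distance 0.058), a sulfate transporter, and Pppde2 (0.089). For Neat1 they were Tob1 (0.15), an antiproliferative protein, and Arcn1 (0.16), a coat protein of transport vesicles. For Gas5 they were Dpp9 (0.074), a peptidase, and Kdm2a (0.081), a histone demethylase. Gas5 was the listed gene nearest to Malat1 (0.36), and it ranked 102 among all genes. With 4 libraries many genes reach such distances, so they describe the profiles and carry no test.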

How the data were processed

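Total RNA of sorted ESCs was depleted of ribosomal RNA, and random-primed fragments were sequenced as single 43-base reads. Per the submitters' processing notes and the study's methods, the authors aligned reads to mm9 with Bowtie, estimated expression with MMSeq, which divides reads that fit several transcripts, and used DESeq2. The deposited values are a signal, namely counts per gene divided by a size factor per library. Dividing by each library's step returned whole reads for 100% of values (tolerance 0.01), and DESeq2 size factors of those reads equalled the deposited ones. Strand use in counting is not given in the sources used here.

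Names and positions came from GENCODE vM1, which held 14462 of 14533 genes, and snoRNA sequences from the mm9 genome. The fit was limma 3.58.1 (R 4.3.3) with a variance trend, on log2(normalized count + 1), which understates changes of low genes. It was tested on simulated data, where recovery of changed genes was required only at a replicate spread smaller than that of these libraries. Alternatives were pseudocounts of 0.5 and 5, other filters and scalings, no trend, a replicate block, each library left out, edgeR 4.0.16 and DESeq2 1.42.0 on whole reads, and host rows summed with snoRNA rows, which was added after seeing the data. An exact permutation test of 2 against 2 libraries cannot give a two-sided p below 0.333 and was not used. The genes named are the listed genes, the snoRNA genes inside them, members of related lists, genes that overlap a listed gene, and the 2 nearest in pattern to Malat1, Neat1 and Gas5. Members and lists were chosen with earlier results of these data known. AC124005.1, Rcc1 and Gm17300 were named for their position.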

Additional observations from a re-analysis of the deposited data

How the results depend on the processing

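No listed long noncoding RNA was called under any of the 15 settings, edgeR and DESeq2 included, and for all but Snhg3 at least 1 of these settings turned the sign. With the replicate number as a block, 1 snoRNA gene inside a host was called, Snora16a (log2 fold change -3.01, limma adjusted p = 0.0384). Calls over all genes rose from 2 to 203 with the block and to 251 with DESeq2 on whole reads, and were 0 with edgeR (783 genes at an unadjusted p under 0.05 and a 2-fold change). Replicate differences correlated across genes (r = 0.480), but there are only 2 pairs and no label says what a shared number means, so the pairing is not established. Upper quartile scaling moved the median of all genes to -0.14, and turned Gas5 (-0.0075), Snhg5 (-0.082) and Snhg12 (-0.14). All 3 lay above that median. Quantile normalization gave -0.12 for Snhg5 and -0.16 for Snhg12, TMM scaling -0.026, edgeR -0.025 and DESeq2 -0.011 for Snhg12. Summing hosts with snoRNA rows gave -0.093 for Snhg1, -0.90 for Snhg3 and -0.57 for Snhg12.

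Leaving out each library gave a median of the 7 genes from -0.17 to 0.62, the latter without 2i replicate 1. The ranges were -0.17 to 0.82 for Malat1, -1.34 to 0.73 for Neat1, -0.35 to 0.62 for Gas5, -0.087 to 0.73 for Snhg1, -0.22 to 0.35 for Snhg5, -0.24 to 0.26 for Snhg12 and -4.19 to 0.018 for Snord22. Snhg3 kept its sign (0.26 to 2.91), as did Snora73a (-1.43 to -0.47), Snora73b (-1.30 to -0.45) and Snora16a (-4.07 to -1.95). Without 2i replicate 1, SNORD24 and Snora44 were too low to be tested. Of 195 values of single genes under alternatives, 172 kept direction and side of the threshold and 22 changed sign. The causes were not tested. With 2 libraries per group, the 95% intervals of all 7 genes include a 2-fold change in at least 1 direction, so they do not exclude a change of that size. Larger estimates also went uncalled at this spread, such as that of Snhg20 (log2 fold change 3.31, limma adjusted p = 0.753).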

Other observations

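Zfas1, the host of Snord12 genes, which the annotation names 1500012F01Rik, had 1193 and 1550 in serum ESCs and 2553 and 1678 in 2i ESCs, with both serum values below both 2i values (log2 fold change -0.61, SE 0.46, limma adjusted p = 0.765). Snhg16 lay on the other side, with 691 and 922 in serum ESCs and 305 and 674 in 2i ESCs (log2 fold change 0.81, SE 0.54, limma adjusted p = 0.759).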
